A study of Danio rerio with 11 samples.

Results

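Autophagy genes were compared between hUHRF1 and WT zebrafish livers at 120 hpf. They were taken by name, as the gene IDs of the count tables whose Ensembl zebrafish gene name begins with that of a core autophagy gene, a cargo receptor or a mitophagy gene, and the rule found 52 of the 32105 IDs. Counts were available for 5 pools of hUHRF1 livers, from clutches 4, 6, 7, 8 and 9, and 6 pools of WT livers, from clutches 4 to 9. The hUHRF1 larvae carried Tg(fabp10a:hUHRF1-EGFP)high, which makes human UHRF1 fused to EGFP in hepatocytes from the fabp10a promoter, and were chosen by their fluorescence. The WT larvae were siblings without fluorescence, and no other allele or treatment is given for either condition. Each hUHRF1 pool held 30 livers, or 27 for clutch 6, and each WT pool held 20. The labels describe a cross between carriers. The methods describe a cross of carriers to WT fish and give the animals of all experiments as heterozygous for the transgene. The labels and methods thus differ on the cross, and the number of transgene copies in a larva was not checked here. No ID in the tables stands for the human transgene, so the counts give no direct check of the labels.

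Autophagy is the route by which a cell encloses part of its cytoplasm in a double membrane, the autophagosome, and delivers it to the lysosome for breakdown. The Ulk kinases start the process, a phosphatidylinositol 3-kinase complex marks the membrane, lipid carriers enlarge it, and a pair of ubiquitin-like conjugation systems attach proteins of the Atg8 family to it. Cargo receptors bind these proteins and bring in aggregates or organelles, and the removal of mitochondria in this way is called mitophagy. In liver, autophagy is known for supplying amino acids in fasting and for clearing protein aggregates and damaged mitochondria.

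The sum of counts lay between 9064943 and 19370497 for hUHRF1 and between 15285359 and 23322479 for WT pools. Levels are given as CPM, counts relative to the total of the library, after scaling each library with TMM factors, which lay between 1.12 and 1.71 in hUHRF1 and between 0.672 and 0.978 in WT pools, and log2 fold changes (L2FC) are hUHRF1 over WT. With library size in place of these factors the median L2FC of all tested genes was 0.83 in place of 0.05, so a change is read relative to that median. All 7 hepatocyte markers looked up were present and were lower in hUHRF1 livers, with a summed level between 22464 and 36703 CPM in hUHRF1 pools and between 74742 and 113053 CPM in WT pools. The 3 exocrine pancreas markers found were all higher, with a summed level between 445 and 4173 CPM in hUHRF1 pools and between 231 and 911 CPM in WT pools. Of 7 tested macrophage markers 4 were higher, and the list summed to values between 27.7 and 42.6 CPM in hUHRF1 pools and between 9.99 and 28.9 CPM in WT pools. Among the other lists 2 of 3 intestine, 1 of 3 erythrocyte, 2 of 7 endothelium, 2 of 4 biliary and 0 of 2 muscle markers differed (edgeR). Of these, 1 intestine marker was higher and 1 lower, the erythrocyte marker was lower, and the endothelium and biliary markers were higher. Summed levels overlapped between the conditions in each of these lists, as they did for exocrine pancreas and macrophages. In pools of whole liver, fewer cells of a type and less RNA per cell cannot be told apart, and the part of these marker changes in the results below was not tested.

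Of the 52 autophagy genes, 50 passed the filter on low counts and 16 (32%) differed between hUHRF1 and WT livers at an adjusted p-value under 0.05, against 29.1% of all 15838 tested genes. The 16 comprised 9 genes higher in hUHRF1 livers (18%, against 14.5% of all genes) and 7 lower (14%, against 14.6%). The number called was therefore close to that among all genes, and the members split in both directions, with a median L2FC of -0.0034 and 25 of the 50 values above 0. With library size only, 33 members were called higher and 0 lower, where 52.1% of all genes were called higher and 3.85% lower. The called genes that rose were ulk1, pik3c3, pik3r4, atg14, atg4b, atg12, sqstm1, optn and fundc2. Those that fell were ulk2, becn1, atg9b, pink1, prkn, bnip3 and 1 of 2 bnip3l genes, of which becn1 and atg9b had a value above 0 with library size only. With TMM each of the 16 had the same sign in all 5 clutches that gave both pools. The genes were called from these same pools, so the shared sign adds no separate support. With library size only the sign was the same in all 5 clutches for 10 genes, the 9 higher genes and bnip3. The differences of pink1 and becn1 were then above 0 in 3 clutches, of atg9b in 4, of bnip3l in 2 and of ulk2 and prkn in 1. In 11 members (22%) no hUHRF1 pool overlapped the WT pools, against 17.1% of all tested genes, with 5 members above the WT range (8.05% of all genes) and 6 below it (9.02%). An L2FC beyond 1 in either direction was found in 11 of the called members, and beyond 1.5 in sqstm1 alone. The shares of all genes beyond these limits are not given here, so these counts are a description of the members only.

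**Figure D1:**
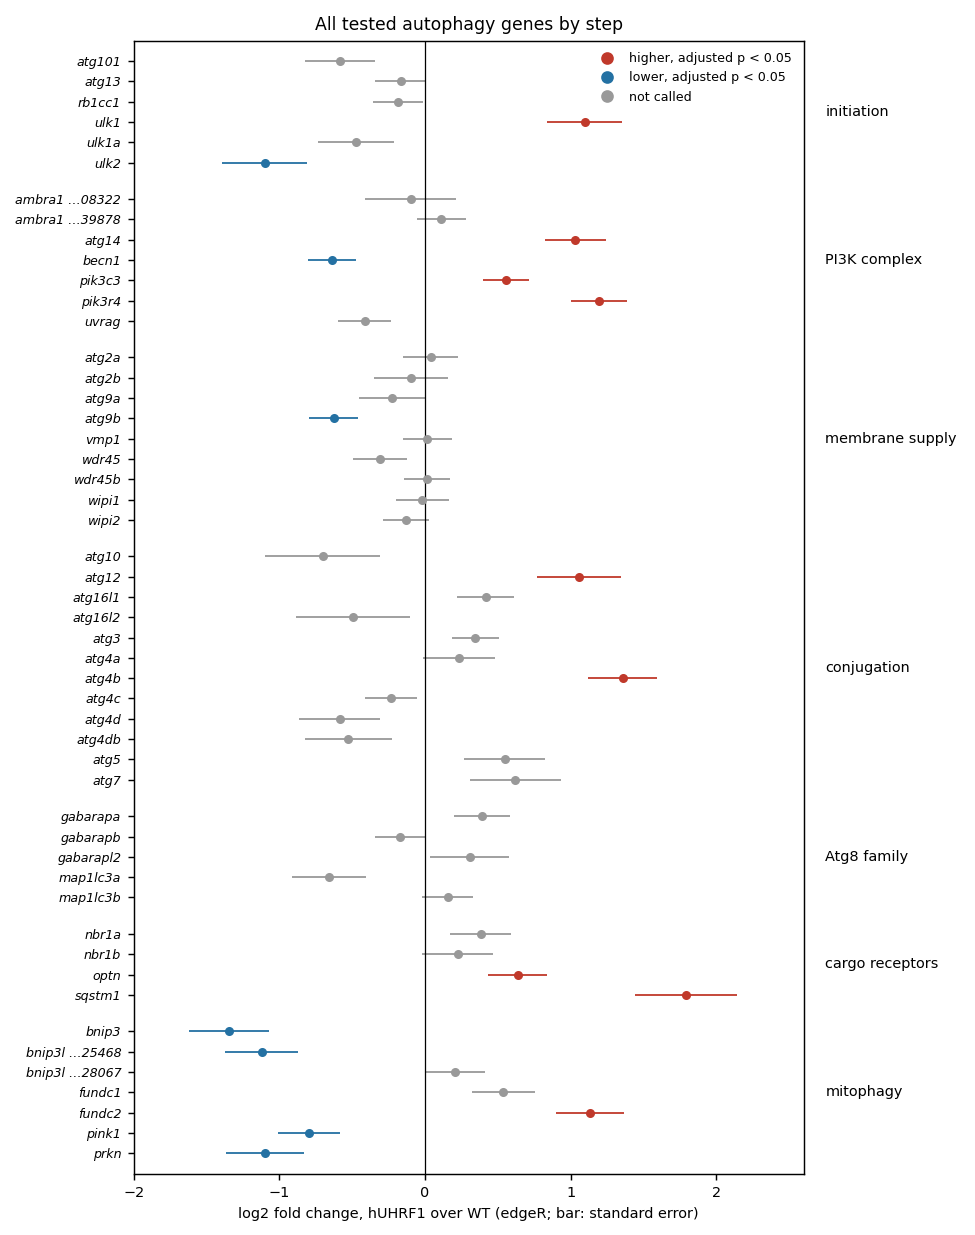
L2FC of the 50 tested autophagy genes, hUHRF1 over WT, on the horizontal axis, with bars for the standard error and genes grouped by step (red, called higher; blue, called lower; grey, not called). Values run from -1.35 for bnip3 to 1.79 for sqstm1, no Atg8 family gene is called, and mitophagy holds 4 of the 7 decreases. Values use TMM, and with library size only 20 of the 50 change sign, becn1 and atg9b among the called genes.

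The initiation complex joins a kinase, Ulk1 or Ulk2, to the adaptors Atg13, Atg101 and Rb1cc1. Its kinase genes moved apart, with ulk1 higher and ulk2 lower in hUHRF1 livers. The ulk1 gene (ENSDARG00000074481) had 27.1, 28.2, 15.8, 19.9 and 14.6 CPM in the hUHRF1 pools of clutches 4, 6, 7, 8 and 9, and between 6.82 and 15.4 CPM in WT pools, with a median of 8.64. Only the lowest hUHRF1 pool, that of clutch 9, fell within the WT range, and ulk1 rose about 2.14-fold (L2FC 1.1, standard error 0.26, adjusted p = 0.0059, edgeR). The ulk2 gene (ENSDARG00000097205) had 40.7, 30.4, 59.7, 48.3 and 24.3 CPM in hUHRF1 pools, and between 46.2 and 142 CPM in WT pools, with a median of 78.3. It fell by 1.1 on the log2 scale (standard error 0.29, adjusted p = 0.012, edgeR), although the WT pool of clutch 9 lay within the hUHRF1 range. Clutch 9 had the lowest ulk2 value of either condition, and within that clutch the hUHRF1 pool was again the lower. Since both kinase genes were counted in the same libraries, their ratio does not depend on the scaling. The log2 ratio of ulk1 to ulk2 counts lay between -1.92 and -0.11 in hUHRF1 pools and between -4.26 and -2.22 in WT pools, without overlap. This ratio and those given below were chosen after the values were seen and are a description without a test.
Of 6 tested initiation genes 2 were called (33.3%, against 29.1% of all genes), and the others did not pass the test. The paralog ulk1a had 22.9, 20.4, 29.8, 23.3 and 19.2 CPM in hUHRF1 pools and between 14.0 and 45.1 CPM in WT pools, with a median of 33.7, with an L2FC of -0.47 (adjusted p = 0.2, edgeR). Here the WT pools were widely spread and enclosed the hUHRF1 pools entirely. The adaptor genes atg101, atg13 and rb1cc1 had L2FCs of -0.58, -0.17 and -0.19, at adjusted p-values of 0.08, 0.49 and 0.45 (edgeR). Without the WT pool of clutch 9 ulk1a was called (adjusted p = 0.042, edgeR), and without the hUHRF1 pool of clutch 8 atg101 was (adjusted p = 0.047, edgeR).

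The class III phosphatidylinositol 3-kinase complex makes the lipid that recruits later factors to the forming membrane. Pik3c3 (Vps34) is its catalytic subunit, Pik3r4 (Vps15) its regulatory subunit, Becn1 its scaffold, and Atg14 or Uvrag directs it to autophagosomes or endosomes. Among 7 tested genes of this step 3 rose and 1 fell (57.1% called, against 29.1% of all genes). With TMM each of these 4 separated all hUHRF1 from all WT pools (57.1%, against 17.1% of all genes). The smallest adjusted p-value of all members was that of pik3r4 (ENSDARG00000060469), which had 60.0, 81.6, 48.4, 47.8 and 37.4 CPM in hUHRF1 pools and between 19.9 and 27.9 CPM in WT pools, with a median of 24.6. Every hUHRF1 pool exceeded every WT pool, with the 2 highest values in clutches 6 and 4 (L2FC 1.19, standard error 0.19, adjusted p = 0.00055, edgeR). For atg14 (ENSDARG00000002670) the hUHRF1 pools had 25.1, 29.2, 34.6, 36.3 and 36.9 CPM, and the WT values lay between 9.22 and 21.2 CPM in WT pools, with a median of 15.6 (L2FC 1.03, standard error 0.21, adjusted p = 0.0026, edgeR). The catalytic subunit gene pik3c3 (ENSDARG00000054829) rose less, with 22.5, 29.5, 27.1, 22.8 and 21.9 CPM in hUHRF1 pools and between 13.5 and 21.2 CPM in WT pools, with a median of 17.1 (L2FC 0.56, standard error 0.16, adjusted p = 0.018, edgeR). Its call was lost without the hUHRF1 pool of clutch 6 (adjusted p = 0.052, edgeR) and without a filter on low counts (adjusted p = 0.065, edgeR).
In contrast, becn1 (ENSDARG00000079128) had 10.8, 10.7, 15.2, 16.2 and 17.1 CPM in hUHRF1 pools and between 19.7 and 24.0 CPM in WT pools, with a median of 21.8. All hUHRF1 pools lay below the narrow WT range, and becn1 fell by 0.64 on the log2 scale with TMM (standard error 0.16, adjusted p = 0.01, edgeR), whereas its L2FC was 0.12 with library size only (adjusted p = 0.55). Relative to the median of all tested genes the becn1 value was -0.69 with TMM and -0.71 with library size only, a measure that the scaling hardly affects by its construction. Ratios within a library are free of this choice. The log2 ratio of pik3c3 to becn1 counts lay between 0.36 and 1.46 in hUHRF1 pools and between -0.75 and 0.11 in WT pools. For pik3r4 to becn1 it lay between 1.13 and 2.93 in hUHRF1 pools and between -0.19 and 0.51 in WT pools, and for atg14 to becn1 between 1.11 and 1.44 in hUHRF1 pools and between -1.15 and -0.01 in WT pools. None of these 3 ratios overlapped between the conditions, and their means differed by 1.22, 1.81 and 1.73. The lack of overlap was fixed in advance and adds no support. With TMM the numerator genes lay above the WT range and becn1 below it in every hUHRF1 pool.

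**Figure D2:**
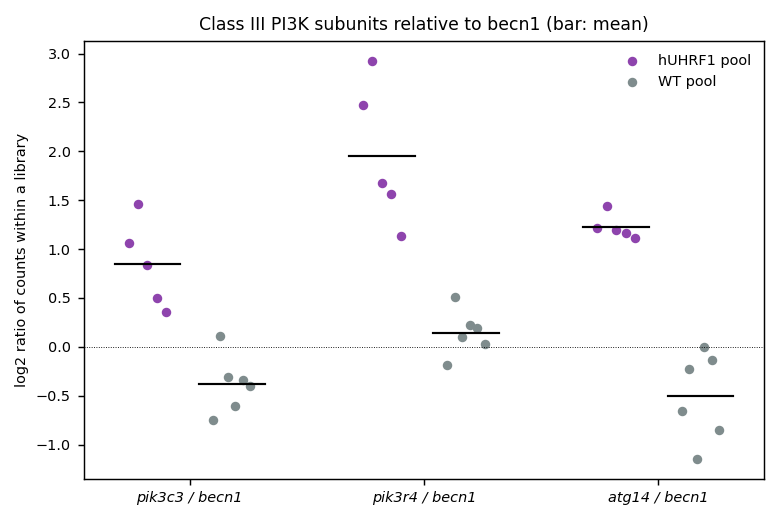
Log2 ratio of the counts of pik3c3, pik3r4 and atg14 to those of becn1 within each library (vertical axis), with a point for each hUHRF1 and WT pool and a bar for the mean of a condition. In each ratio all 5 hUHRF1 pools sit above all 6 WT pools, with the smallest gap for pik3c3 (0.36 against 0.11). That separation is fixed by the TMM levels, where becn1 lies below and the other genes above the WT range.

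Uvrag had an L2FC of -0.41 (adjusted p = 0.1, edgeR) and with TMM its level was below that of the WT sibling pool in each of 5 clutches. With clutch as a replicate block, which compares each hUHRF1 pool with the WT pool of its own clutch, its L2FC was -0.52 and the adjusted p-value 0.013 (edgeR). Without the WT pool of clutch 5, which the block also leaves out, the adjusted p-value was 0.035. Other uncalled members also had the same sign in each of 5 clutches with TMM, atg10 lower and atg3, gabarapa, gabarapl2, nbr1a and nbr1b higher. A pair of genes is named ambra1, for a scaffold that binds Becn1. Their L2FCs were -0.10 (ENSDARG00000008322, adjusted p = 0.84) and 0.11 (ENSDARG00000039878, adjusted p = 0.65), and reads of close copies may be shared between them.

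Among 9 genes that supply and bind the growing membrane 1 fell and 0 rose (11.1% called, against 29.1% of all genes, edgeR). They encode the lipid scramblase Atg9, the lipid carriers Atg2, the endoplasmic reticulum protein Vmp1 and the lipid-binding Wipi and Wdr45 proteins. The called gene was atg9b (ENSDARG00000055292), which had 48.3, 32.5, 36.4, 48.6 and 34.6 CPM in hUHRF1 pools and between 51.5 and 74.9 CPM in WT pools, with a median of 58.7, without overlap. It fell by 0.63 on the log2 scale with TMM (standard error 0.17, adjusted p = 0.014, edgeR), and its L2FC was 0.15 with library size only (adjusted p = 0.47). Relative to the median of all genes, a measure that the scaling hardly affects by its construction, the values were -0.68 and -0.69. Its paralog atg9a had an L2FC of -0.23 (adjusted p = 0.49, edgeR). Of the rest, vmp1, wdr45b, wipi1, atg2a and atg2b had L2FCs of 0.01, 0.01, -0.02, 0.04 and -0.10, and the sign of each changed with the library left out. For wipi2 and wdr45 the values were -0.13 and -0.31 (adjusted p = 0.56 and 0.22, edgeR). The vmp1 gene had 78.5 ± 6.85 CPM (SD, n = 5) across hUHRF1 pools and 77.8 ± 15.6 CPM (SD, n = 6) across WT pools.

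The conjugation machinery links Atg12 to Atg5, which with Atg16l1 directs the attachment of Atg8 proteins to lipid. Atg7 is the activating enzyme of both systems, Atg10 and Atg3 carry the activated proteins, and the Atg4 proteases trim Atg8 proteins and release them again. Of 12 tested genes 2 rose, atg4b and atg12, and 0 fell (16.7% called, against 29.1% of all genes). The protease gene atg4b (ENSDARG00000052104) had 9.33, 12.4, 10.6, 7.28 and 7.16 CPM in hUHRF1 pools and between 2.46 and 4.71 CPM in WT pools, with a median of 3.76. Every hUHRF1 pool was above every WT pool, and atg4b rose about 2.56-fold (L2FC 1.36, standard error 0.24, adjusted p = 0.00098, edgeR). Expression of atg12 (ENSDARG00000069545) was 7.08, 9.26, 9.82, 6.56 and 5.48 CPM in hUHRF1 pools and between 1.95 and 6.18 CPM in WT pools, with a median of 3.49. The hUHRF1 pool of clutch 9 lay within the WT range, and atg12 rose about 2.08-fold (L2FC 1.06, standard error 0.29, adjusted p = 0.014, edgeR). The log2 ratio of atg12 to atg5 counts overlapped, at values between -1.53 and 0.06 in hUHRF1 pools and between -1.98 and -0.25 in WT pools.
Its partner atg5 and the activating enzyme gene atg7 did not pass the test. The atg5 values were 20.4, 19.2, 9.42, 12.3 and 9.19 CPM in hUHRF1 pools and between 6.91 and 15.9 CPM in WT pools, with a median of 8.30 (L2FC 0.55, adjusted p = 0.16, edgeR). Those of atg7 were 12.7, 10.5, 5.28, 7.60 and 3.62 CPM in hUHRF1 pools and between 3.12 and 7.30 CPM in WT pools, with a median of 5.35 (L2FC 0.62, adjusted p = 0.15, edgeR). Both conditions overlapped for these genes, and hUHRF1 pools exceeded the WT pool in 4 of 5 clutches. Both were called with clutch as a replicate block, atg5 at an adjusted p of 0.049 and atg7 at 0.045 (edgeR).
For the carrier genes atg3 and atg10 the L2FCs were 0.34 and -0.70 (adjusted p = 0.12 and 0.2, edgeR), and for atg16l1 and atg16l2 0.42 and -0.50 (adjusted p = 0.13 and 0.37, edgeR). The other Atg4 genes, atg4a, atg4c, atg4d and atg4db, had L2FCs of 0.23, -0.23, -0.59 and -0.53, at adjusted p-values of 0.51, 0.35, 0.13 and 0.2 (edgeR). Without the hUHRF1 pool of clutch 8 atg16l1 was called (adjusted p = 0.026, edgeR). With the set of clutches, 4 to 6 or 7 to 9, as a term in the model atg10 was called lower (L2FC -0.81, adjusted p = 0.041, edgeR).

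Proteins of the Atg8 family, the LC3 and Gabarap proteins, coat the autophagosome and hold cargo receptors. None of the 5 tested genes was called (edgeR), against 29.1% of all genes, and map1lc3a was the 1 gene with an unadjusted p-value under 0.05. The map1lc3b gene had 48.5, 43.7, 38.1, 33.2 and 35.1 CPM in hUHRF1 pools and between 26.1 and 44.0 CPM in WT pools, with a median of 34.9 (L2FC 0.16, adjusted p = 0.53, edgeR). Expression of map1lc3a was 26.3 ± 5.89 CPM (SD, n = 5) across hUHRF1 pools and 41.6 ± 15.9 CPM (SD, n = 6) across WT pools, with the highest value of all pools in the WT pool of clutch 5 (L2FC -0.66, adjusted p = 0.067, edgeR). DESeq2 called it (adjusted p = 0.048), as did edgeR within clutches 7 to 9 (adjusted p = 0.044) and without the WT pool of clutch 6 (adjusted p = 0.022). The L2FCs of gabarapa, gabarapb and gabarapl2 were 0.39, -0.17 and 0.31 (adjusted p = 0.15, 0.48 and 0.42, edgeR). The gabarapa gene was called with clutch as a replicate block (L2FC 0.54, adjusted p = 0.033, edgeR) and without the WT pool of clutch 5 (adjusted p = 0.037, edgeR). The remaining genes, map1lc3c and map1lc3cl, did not reach the minimum for a test, with 13 and 15 counts over all hUHRF1 pools and 4 and 5 over all WT pools.

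Cargo receptors tie ubiquitin-marked cargo to Atg8 proteins. All 4 receptor genes had L2FCs above 0, where the median of all tested genes was 0.05. Of these, sqstm1 and optn passed the test (50% called higher, against 14.5% of all genes). The largest change among all members was the increase of sqstm1 (ENSDARG00000075014), which encodes p62, a receptor for protein aggregates. It had 203, 289.8, 234, 131 and 85.8 CPM in hUHRF1 pools and between 25.0 and 98.2 CPM in WT pools, with a median of 50.6. Only the hUHRF1 pool of clutch 9 fell within the WT range, below the WT pool of clutch 5, and sqstm1 rose about 3.47-fold (L2FC 1.79, standard error 0.35, adjusted p = 0.0019, edgeR). Within clutches the log2 difference ranged from 1.1 in clutch 9 to 3.22 in clutch 7.
For optn (ENSDARG00000002663), a receptor for ubiquitin-marked mitochondria and bacteria, the values were 39.3, 43.4, 73.3, 45.2 and 56.1 CPM in hUHRF1 pools and between 26.3 and 48.0 CPM in WT pools, with a median of 30.1 (L2FC 0.64, standard error 0.20, adjusted p = 0.03, edgeR). The WT pool of clutch 5 exceeded 3 hUHRF1 pools. The optn call did not hold without the hUHRF1 pools of clutches 7 and 9 or the WT pools of clutches 4, 6, 7, 8 and 9, each left out in turn, with adjusted p-values up to 0.087 without the hUHRF1 pool of clutch 7, and the L2FC within clutches 4 to 6 was 0.13 (adjusted p = 0.78, edgeR). It was also lost without a filter on low counts (adjusted p = 0.056, edgeR).
The related receptor genes nbr1a and nbr1b had L2FCs of 0.38 and 0.22 (adjusted p = 0.19 and 0.52, edgeR) and with TMM in each of 5 clutches exceeded the level of the WT sibling pool. The WT pool of clutch 5 was the highest WT pool for both. With clutch as a replicate block, which leaves that pool out, both were called, nbr1a with an L2FC of 0.58 (adjusted p = 0.014) and nbr1b of 0.48 (adjusted p = 0.027, edgeR). Without that pool alone, and no block, the adjusted p-values were 0.037 for nbr1a and 0.06 for nbr1b (edgeR).

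Of 7 mitophagy genes 4 fell and 1 rose (71.4% called, against 29.1% of all genes). With TMM each of these 5 separated all hUHRF1 from all WT pools (71.4%, against 17.1% of all genes). Pink1 is a kinase that builds up on damaged mitochondria and activates the ubiquitin ligase Parkin, encoded by prkn. The pink1 gene (ENSDARG00000001929) had 18.1, 13.1, 15.2, 15.3 and 11.1 CPM in hUHRF1 pools and between 19.7 and 39.8 CPM in WT pools, with a median of 22.1 (L2FC -0.80, standard error 0.21, adjusted p = 0.013, edgeR). For prkn (ENSDARG00000021555), at lower counts, the values were 3.83, 2.67, 2.50, 2.08 and 2.28 CPM in hUHRF1 pools and between 4.12 and 8.09 CPM in WT pools, with a median of 4.99 (L2FC -1.1, standard error 0.27, adjusted p = 0.0072, edgeR). On the TMM scale both were thus lower in every hUHRF1 pool than in any WT pool.
Bnip3 and Bnip3l are receptors in the outer mitochondrial membrane that bind Atg8 proteins without ubiquitin. The largest decrease of all members was that of bnip3 (ENSDARG00000099961), with 5.19, 2.82, 7.21, 5.12 and 5.39 CPM in hUHRF1 pools and between 7.90 and 19.6 CPM in WT pools, with a median of 13.2 (L2FC -1.35, standard error 0.27, adjusted p = 0.0025, edgeR). Its lowest value was in the hUHRF1 pool of clutch 6, and the WT pool of that clutch was also the lowest WT pool. A pair of genes is named bnip3l, and 1 of them was called. For ENSDARG00000025468 the values were 5.71, 5.56, 4.54, 3.92 and 3.46 CPM in hUHRF1 pools and between 7.29 and 16.4 CPM in WT pools, with a median of 8.84 (L2FC -1.12, standard error 0.25, adjusted p = 0.0043, edgeR). For ENSDARG00000028067 they overlapped, at 19.4 ± 5.46 CPM (SD, n = 5) across hUHRF1 pools and 16.8 ± 3.47 CPM (SD, n = 6) across WT pools, and the L2FC was 0.20 (adjusted p = 0.48, edgeR). The log2 ratio of the second gene to the first lay between 1.39 and 2.64 in hUHRF1 pools and between 0.35 and 1.07 in WT pools, without overlap. How the counting treated reads shared by these copies is not given in the sources used here.
Fundc1 is a further mitophagy receptor of the outer membrane, and Fundc2 is its relative there. The fundc2 gene (ENSDARG00000103740) had 13.5, 17.6, 16.5, 11.7 and 14.6 CPM in hUHRF1 pools and between 4.21 and 9.66 CPM in WT pools, with a median of 6.40. It was above the WT range in every hUHRF1 pool and rose about 2.19-fold (L2FC 1.13, standard error 0.23, adjusted p = 0.0028, edgeR). Expression of fundc1 was 10.7 ± 2.80 CPM (SD, n = 5) across hUHRF1 pools and 7.36 ± 1.55 CPM (SD, n = 6) across WT pools (L2FC 0.54, adjusted p = 0.074, edgeR). It was called when genes were required to have at least 10 counts in every library (adjusted p = 0.035, edgeR) and with library size only. With library size only the 4 decreases kept their sign but not their call, at -0.0031 for pink1, -0.30 for prkn, -0.57 for bnip3 and -0.30 for bnip3l, against 0.83 for the median gene.

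**Figure D3:**
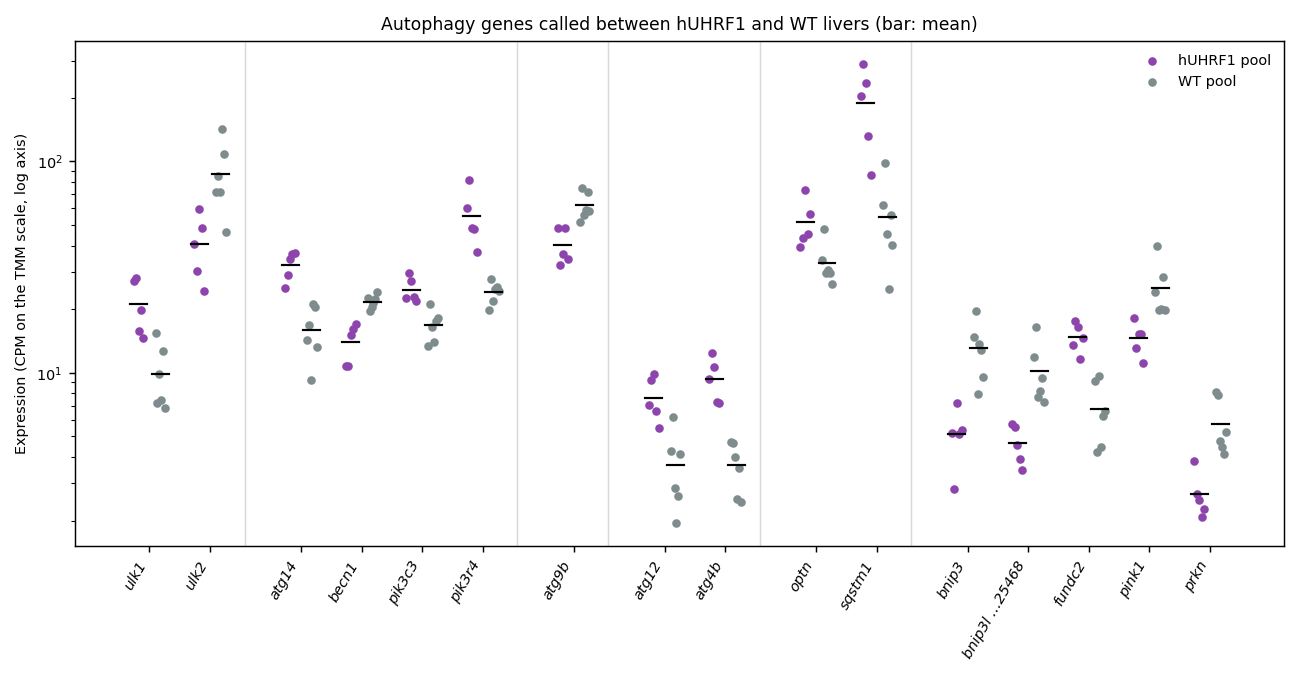
Expression in CPM (log axis) of the 16 called autophagy genes in each hUHRF1 (left of each pair) and WT (right) pool, in order of step, with a bar for the mean. The sqstm1 points reach 289.8 CPM in the hUHRF1 pool of clutch 6, and the 5 mitophagy genes show no overlap between the conditions. Levels use TMM, and the fitted L2FCs of becn1 and atg9b change sign with library size only.

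**Figure D4:**
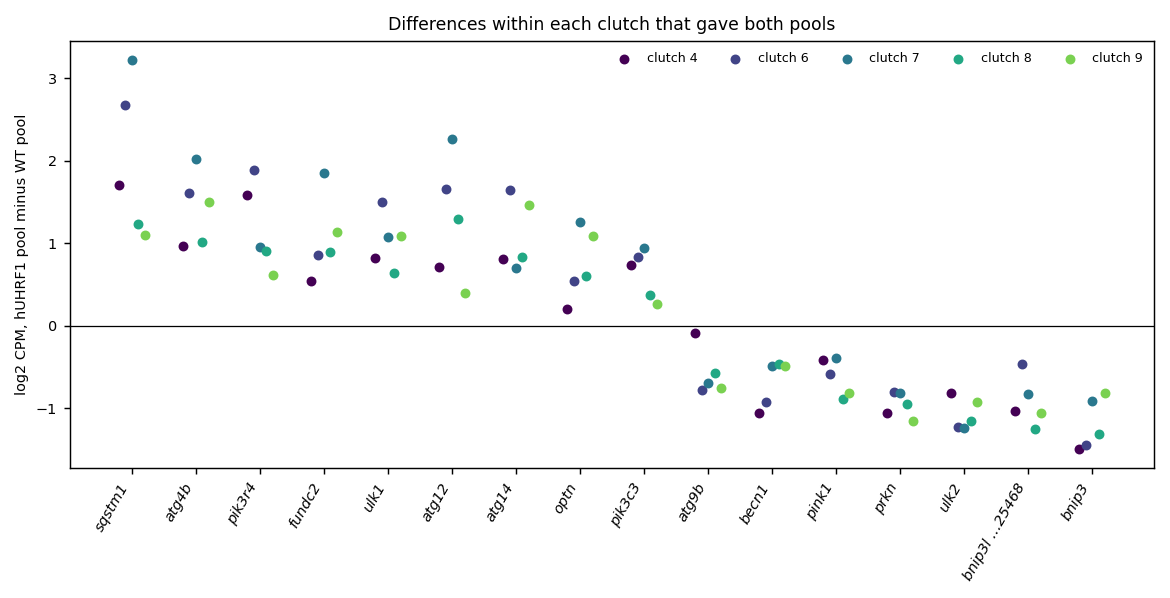
Difference in log2 CPM between the hUHRF1 and the WT pool of the same clutch (vertical axis) for the 16 called genes, with a colour for each of the 5 clutches that gave both pools. All 5 points of the 9 genes at left lie above 0 and all 5 of the 7 genes at right lie below 0, atg9b in clutch 4 being nearest to 0 (-0.093). These differences use TMM, and the genes were called from these same pools, so the shared sign adds no separate support. With library size only, the 9 genes at left keep all points above 0, bnip3 keeps all below 0, and the other 6 have 1 to 4 of 5 points above 0.

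Clutches 4 to 6 and 7 to 9 have differently worded titles and were therefore also taken as separate sets. When the difference between hUHRF1 and WT livers was compared between these sets with an interaction term in edgeR, 0 of the 50 members and 0 of all 15838 genes were called, and 2 members, pik3r4 and optn, had an unadjusted p-value under 0.05 (3.81% of all genes). The pik3r4 increase was 1.59 in clutches 4 to 6 and 0.82 in clutches 7 to 9, and that of optn 0.13 and 1.0. Fitted within each set, the 16 called genes all kept their direction, which adds no support because they were called from these same pools. Of the 16, 7 were called in clutches 4 to 6 and 9 in clutches 7 to 9. In neither set were pink1, prkn, pik3c3 and atg9b called. The number of members called was 7 with the 2 hUHRF1 and 3 WT pools of clutches 4 to 6, against 10.4% of all genes, and 10 with the 3 pools of each condition of clutches 7 to 9, against 16.4%. Over the 11 fits that left out a library it ranged from 15 to 19, where 24.4% to 29% of all genes were called.

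The scaling decided how many members were called lower, as all 7 decreases lost their call with library size only. Relative to the median of all genes they lay below 0 with both, from -1.40 with TMM and -1.41 with library size only for bnip3 to -0.68 and -0.69 for atg9b. This agreement is no separate check, since a change of scaling shifts all genes by nearly the same amount. Before any scaling the share of all counts that fell on the 52 genes was 0.135% to 0.242% in hUHRF1 pools and 0.0794% to 0.111% in WT pools. This rise was not particular to the members. With library size only their median L2FC was 0.78, against 0.83 for all tested genes.

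**Figure D5:**
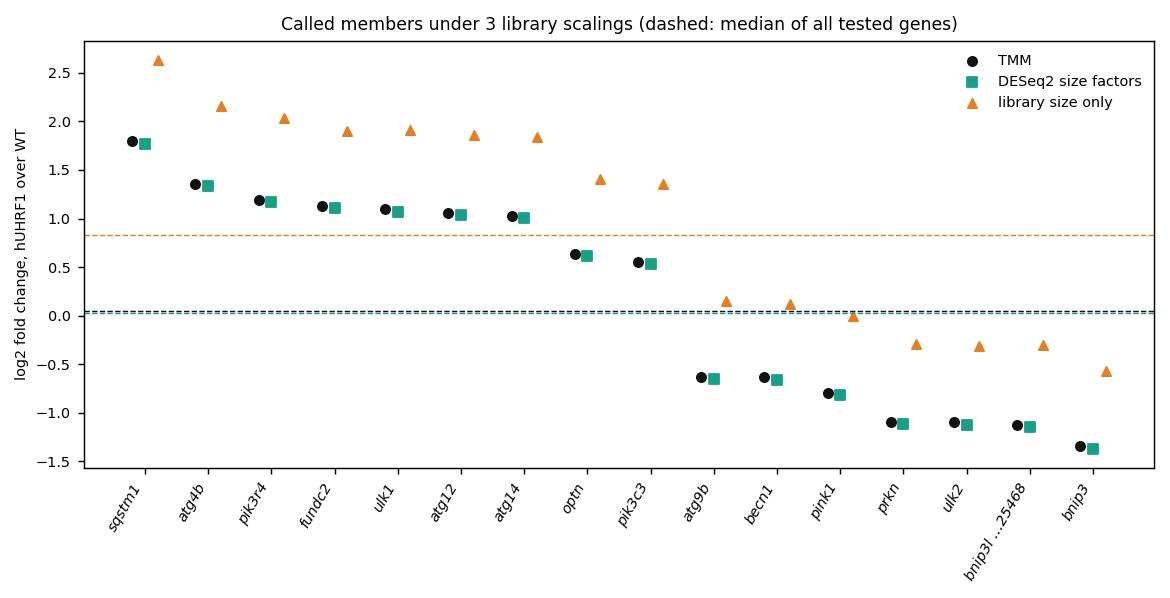
L2FC of the 16 called genes, hUHRF1 over WT, with TMM factors (circles), DESeq2's size factors (squares) and library size only (triangles), and dashed lines for the median of all tested genes under each. Library size only moves the median from 0.05 to 0.83 and all genes with it, so that becn1 (0.12) and atg9b (0.15) lie above 0 but below that median.

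Some members overlap a protein-coding gene on the chromosome in RefSeq's GRCz12tu annotation, and the strand setting of the counting is not given in the sources used here. Among called members this applies to atg4b with dtymk, sqstm1 with mrnip, becn1 with med1, atg9b with agap3 and atg12 with a gene that was not tested under that name. The called members ulk1, ulk2, prkn and becn1 also overlap loci there that are not annotated as protein-coding. None of the tested neighbours was called with TMM (edgeR). For mrnip and agap3 the medians were only 1.85 and 1.04 CPM in hUHRF1 pools and 1.31 and 0.51 CPM in WT pools, so a missing call says little there. The L2FCs of the tested neighbours were 0.21 for dtymk (standard error 0.30), 0.78 for mrnip (0.46), -0.35 for med1 (0.23) and 0.70 for agap3 (0.48). With library size only the L2FC of med1 was 0.45, and it was not called (adjusted p = 0.22, edgeR). The other 3 were called with library size only, dtymk at 0.94 (adjusted p = 0.036), mrnip at 1.52 (adjusted p = 0.015) and agap3 at 1.44 (adjusted p = 0.021, edgeR), against 0.83 for the median gene.

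Genes around the core machinery were counted in 3 lists, of upstream nutrient signalling, fusion with the lysosome, and other receptors and regulators. They held 71 tested genes that the name rule does not take, of which 21 (29.6%, against 29.1% of all genes) were called, 12 higher and 9 lower, with a median L2FC of 0.05. In the signalling list 5 of 29 genes were higher and 4 lower. Lowest in adjusted p-value were foxo3a, a forkhead transcription factor (L2FC -1.45, standard error 0.27, adjusted p = 0.0013, edgeR), deptor, an inhibitor within the mTOR complexes (L2FC -1.71, standard error 0.33, adjusted p = 0.0016, edgeR), and rptor, the scaffold of mTOR complex 1 (L2FC -0.67, standard error 0.13, adjusted p = 0.0018, edgeR), all of them lower, although rptor was at 0.12 with library size only. With library size only foxo3a (L2FC -0.69, adjusted p = 0.063, edgeR) and rptor lost their call, and deptor kept it (adjusted p = 0.0088, edgeR). The gene tfeb encodes a transcription factor that in mammals drives lysosome and autophagy genes, and it was looked at after its value was seen. It had between 3.92 and 9.19 CPM in hUHRF1 pools and between 1.58 and 4.68 CPM in WT pools (L2FC 1.04, standard error 0.35, adjusted p = 0.039, edgeR), and it was no longer called without the hUHRF1 pools of clutches 4, 7 and 9 or the WT pools of clutches 5, 6 and 8, each left out in turn (adjusted p up to 0.099, edgeR).
In the fusion list 3 of 21 genes were higher and 1 lower. Of these, bloc1s1, a subunit of complexes that place lysosomes (L2FC 1.32, standard error 0.23, adjusted p = 0.00088, edgeR), and vps16, a subunit of the tethering complex (L2FC 0.59, standard error 0.18, adjusted p = 0.023, edgeR), were higher, and the adaptor gene plekhm1 was lower (L2FC -0.82, standard error 0.22, adjusted p = 0.012, edgeR). For vps16 the adjusted p-value was up to 0.058 (edgeR) without the hUHRF1 pools of clutches 7 and 8 or the WT pools of clutches 4 and 5, each left out in turn, and 0.062 without a filter on low counts. Among 21 other receptors and regulators 4 were higher and 4 lower. They were led by the glycogen receptor gene stbd1, which was lower (L2FC -2.04, standard error 0.29, adjusted p = 2e-04, edgeR). The endoplasmic reticulum receptor gene ccpg1 was higher (L2FC 2.19, standard error 0.41, adjusted p = 0.0015, edgeR), with WT levels under 1 CPM, and sec62, another such receptor, was lower (L2FC -0.96, standard error 0.19, adjusted p = 0.002, edgeR). With library size only plekhm1 (L2FC -0.055, adjusted p = 0.81, edgeR) and sec62 (L2FC -0.16, adjusted p = 0.41, edgeR) lost their call. The call of stbd1 was kept (L2FC -1.27, adjusted p = 0.0014, edgeR).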

How the data were processed

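RNA depleted of ribosomal RNA was sequenced from 5 hUHRF1 and 6 WT pools of livers. The methods name both NextSeq and HiSeq instruments, and the sample labels used here do not tie them to pools. Adaptors were removed by the authors, reads were aligned to GRCz10 with HISAT2 at default parameters and counted with HTSeq, and the deposited values are counts per Ensembl gene ID without normalization. Gene names of 26269 of 32105 IDs came from an Ensembl table, which gives some genes the human symbol. The members and lists were chosen with earlier results of these data known.
R 4.3.3 was used, with the packages limma 3.58.1, edgeR 4.0.16 and DESeq2 1.42.0. Low counts were removed with filterByExpr (minimum count 10, minimum total 15), which left 15838 genes. Libraries were scaled with TMM, conditions compared by the quasi-likelihood test of edgeR, and p-values adjusted over these genes (Benjamini-Hochberg), with calls at an adjusted p-value under 0.05. The standard error is the L2FC over the square root of the F statistic. Log2 CPM used a prior count of 2. The procedure was also run on simulated counts, in which equal numbers of genes rose and fell and no clutch effect was present. That run does not test how the results depend on the scaling or the clutches. The p-values rest on 5 and 6 pools and set each difference against the spread among pools of a condition, which came from separate clutches. The main test treats all pools as independent, although 5 clutches gave a pool of each condition. Precision is lowest for members with few counts.
Every matched gene is named. For called members and for becn1, ulk1, sqstm1, pink1, atg5, atg7 and map1lc3b genes, the value of every hUHRF1 pool and the range and median of WT pools are given. For each list the 3 genes of lowest adjusted p-value are named. Of the symbols listed, 29 of 40 for signalling, 20 of 24 for fusion and 21 of 32 for other receptors matched a gene name. The marker lists of cell types cover hepatocytes, exocrine pancreas, intestine, erythrocytes, macrophages, endothelium, biliary cells and muscle.
The labels tie each pool to a clutch, and the deviations of pools of the same clutch from the means of their conditions correlated over genes at r of 0.206 to 0.481. Results are given without pairing, with clutch as a replicate block among the alternatives. The rest were scaling by library size only or by DESeq2's size factors, the test of DESeq2, no filter, at least 10 counts in every library, the set of clutches as a term, each set alone and each library left out. The differences within clutches with library size only were added after seeing the data. Promoter and protein sequences were not analysed here.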

Additional observations from a re-analysis of the deposited data

Results flagged for a closer look

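In 4 of 100 sets of pools, a set being the pools of 1 condition for 1 tested member, the highest or lowest pool stood apart from the others by more than the 95% limit of Dixon's ratio, the gap to the nearest pool over the range of the set in log2 CPM. Chance gives about 1 in 20. The atg13 level was 43.1 CPM in the hUHRF1 pool of clutch 6, against 57.3 CPM in the next lowest hUHRF1 pool (ratio 0.748). For wdr45 the hUHRF1 pool of clutch 4, at 16.9 CPM, stood above the next at 12.5 CPM (ratio 0.855), and the WT pool of clutch 5, at 24.2 CPM, above the next at 16.2 CPM (ratio 0.703). The atg16l2 level was 0.876 CPM in the WT pool of clutch 7, against 2.57 CPM in the next lowest WT pool (ratio 0.692). None of these genes was called between hUHRF1 and WT livers (edgeR).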

How the results depend on the processing

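With DESeq2's size factors the 16 called members remained the same, where 29% of all genes were called. With DESeq2 (19.3% of 28134 genes called) and with at least 10 counts in every library (34.1% of 11732 genes) all 16 remained and 1 was added. Without a filter on low counts 14 remained (15% of 28134 genes called). With the set of clutches as a term, 19 members were called (34.4% of all genes, against 29.1%), among them all 16. The term added atg5 and atg7, both higher, and atg10, which was lower. Clutches pair the pools, and with clutch as a replicate block 22 members were called (35.5% of all genes), of which 16 were those without the block, with 14 higher in place of 9 and 8 lower in place of 7. The block, which also leaves out the WT pool of clutch 5, added atg5, atg7, uvrag, gabarapa, nbr1a and nbr1b and changed no other call among the members, and without that pool alone uvrag, gabarapa and nbr1a were already added. Library size only moved the numbers to 33 called (55.9% of all genes), 33 higher and 0 lower, the median L2FC of the members to 0.78 and the calls among the pathway neighbours to 49 in place of 21. Clutches 4 to 6 only gave 7 members called (4 higher and 3 lower) and 5 neighbours, where 10.4% of all genes were called. Clutches 7 to 9 only gave 10 members (7 higher and 3 lower) and 10 neighbours, where 16.4% of all genes were called. Each of these fits had fewer pools. Signs changed with library size only for ambra1 ENSDARG00000008322 (0.74), uvrag (0.37), map1lc3a (0.15), atg13 (0.62), wipi2 (0.66), wipi1 (0.79), atg16l2 (0.32), atg101 (0.21), atg4d (0.21), atg4c (0.53), atg9a (0.57), gabarapb (0.64), atg9b (0.15), ulk1a (0.31), rb1cc1 (0.62), becn1 (0.12), atg4db (0.23), wdr45 (0.49), atg2b (0.75), atg10 (0.074), rptor (0.12) and med1 (0.45). They changed with DESeq2's size factors for vmp1 (-0.012) and wdr45b (-0.012), with DESeq2 for vmp1 (-0.024) and wdr45b (-0.030), without a filter for vmp1 (-0.024) and wdr45b (-0.024), with at least 10 counts in every library for wipi1 (0.062), with the block for vmp1 (-0.048) and wipi1 (0.11), within clutches 4 to 6 for ambra1 ENSDARG00000008322 (0.13), wdr45b (-0.21), bnip3l ENSDARG00000028067 (-0.26), wipi1 (0.040), atg2b (0.30) and dtymk (-0.33) and within clutches 7 to 9 for vmp1 (-0.082), atg4a (-0.030), ambra1 ENSDARG00000039878 (-0.061) and atg2a (-0.025). With a library left out they changed for ambra1 ENSDARG00000008322 (-0.30 to 0.057), vmp1 (-0.061 to 0.079), wdr45b (-0.047 to 0.080), wipi1 (-0.097 to 0.10), atg2b (-0.22 to 0.043), atg2a (-0.096 to 0.13) and dtymk (-0.0045 to 0.40). Apart from becn1, atg9b and rptor, whose signs changed with library size only, none of these genes was called in the comparison of all pools with TMM. Of those whose sign changed with library size only, atg13, wipi2, wipi1, gabarapb, atg4c, rb1cc1, atg2b and atg9a were called higher with that scaling (adjusted p = 0.0036 to 0.042, edgeR). It called 52.1% of all genes higher. The interaction of condition with the set of clutches called 0 members with library size only, with DESeq2's size factors, with at least 10 counts in every library and without each library in turn. The cause of these changes was not tested. Counts measure RNA, so neither protein nor the rate of autophagy was measured.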
